A study of Mus musculus with 9 samples.

Results

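The report concerns 10 inflammatory signalling genes in 3T3-L1, a line of mouse fibroblast-like preadipocytes whose confluent cultures fill with lipid and become adipocytes after hormonal induction. They were the chemokines Ccl2 and Ccl5, the cytokines Il6, Csf1 and Mif, the adhesion molecule Icam1, the tumour necrosis factor receptor Tnfrsf1a, and the NF-kB pathway genes Ikbkb, Nfkb1 and Nfkbia. They were chosen by gene name and make up 10 of the 321 metabolic syndrome genes on the array, each with 1 spot. Of these 10 genes, 7 were above the limit of 10 intensity units on all 9 arrays. Ccl5 was above it on 6 arrays, Il6 on 2 and Icam1 on 0, so 9 of the 10 entered the tests, among 239 tested genes.

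Each array held RNA from a single culture. Of the 5 cultures without additive, 1 was taken on day 0, as confluent preadipocytes before induction. The other 4 came from days 2, 4, 6 and 8 of differentiation without additive, here called control. Day 6 comes from the sample labels, while the design text of the series lists days 0, 2, 4 and 8. The 4 chickpea cultures came from the same days in medium with 0.5% of a preparation that the labels call CP and Chickpea, without stating its contents. After day 0, cultures in both media were exposed to methylisobutylxanthine, dexamethasone, insulin and fetal bovine serum during the first 2 days and to insulin and serum thereafter. There was 1 array for each medium and day, all in separate wells of the same slide, so culture, well and condition cannot be told apart. Between 62.3% and 73.2% of the 321 metabolic genes were above the limit per array. Median intensity was 47 to 168 units on the control arrays and 55 to 83 units on the chickpea arrays.

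NF-kB is a dimeric transcription factor that waits in the cytoplasm, held by inhibitors of the I-kB family. When tumour necrosis factor binds its receptor, the IKK complex phosphorylates the inhibitor, which is degraded, and the freed dimer enters the nucleus and switches on chemokine, cytokine and adhesion genes. One of its targets encodes the inhibitor itself, which closes a feedback loop. In adipose tissue, preadipocytes and adipocytes secrete several of these factors, and macrophages recruited by Ccl2 and maintained by Csf1 add to them in obesity.

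NF-kB dimers bind short DNA elements called kappa B sites. Matches to the textbook kappa B consensus, 10 letters long and partly ambiguous, were looked for on both strands of the promoters, with no other motif searched. RefSeq promoters on GRCm38.p6 were at hand for 6 of the 10 genes (Il6, Csf1, Mif, Icam1, Nfkbia and Tnfrsf1a), each from 250 bases before to 50 bases after the gene start. A match occurred in 3 of these 6, each with 1, against 2779 of 32851 promoters in the table (8.46%). The 200 bases before the start of those 3 genes are shown, read along each gene's own strand, so that a candidate element can be set beside the measured course. Capitals mark the match. It lies 44 to 35 bases before the start in Il6 (chr5:30012914-30013113, plus strand), 154 to 145 bases before it in Csf1 (chr3:107760470-107760669, minus strand) and 29 to 20 bases before it in Nfkbia (chr12:55492648-55492847, minus strand).
Il6: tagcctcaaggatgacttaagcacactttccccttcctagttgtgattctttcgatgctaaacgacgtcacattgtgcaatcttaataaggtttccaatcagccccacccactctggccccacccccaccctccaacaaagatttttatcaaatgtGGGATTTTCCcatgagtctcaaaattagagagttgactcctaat
Csf1: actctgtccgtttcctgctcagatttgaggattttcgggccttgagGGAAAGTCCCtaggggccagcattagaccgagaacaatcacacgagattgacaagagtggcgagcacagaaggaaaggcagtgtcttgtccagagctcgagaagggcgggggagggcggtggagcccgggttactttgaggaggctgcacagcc
Nfkbia: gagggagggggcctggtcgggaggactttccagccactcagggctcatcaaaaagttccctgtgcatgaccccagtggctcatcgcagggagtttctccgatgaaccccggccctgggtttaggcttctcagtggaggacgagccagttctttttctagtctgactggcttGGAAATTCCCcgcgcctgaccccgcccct
A match of letters is a description of the sequence and does not show that NF-kB was bound in these cells. The measured courses of the 3 genes with a match differed in kind, with no test of the difference. Il6 was near or under the limit, Csf1 was higher with chickpea on days 2, 4 and 6 under all 6 scalings of the arrays, and Nfkbia was lower with chickpea on days 4 and 6 under all 6, as the values that follow show.

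Levels are given in 2 ways. The deposited values are intensities scaled so that the Gapdh spots average 10000, and they are called Gapdh-scaled. For the tests they were converted to log2 and quantile normalized, which gives every array the same distribution and reads a gene by its rank within the array. The 2 scales part where Gapdh itself moves. The quantile normalized log2 level of Gapdh, a glycolytic enzyme gene often used as a reference, was 11.97 on day 0, then 13.28, 13.47, 13.69 and 13.69 on days 2 to 8 in control medium and 12.67, 13.28, 13.69 and 13.69 in chickpea medium. A gene whose rank did not change therefore tends to read lower on the Gapdh scale on the later arrays.

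**Figure D1:**
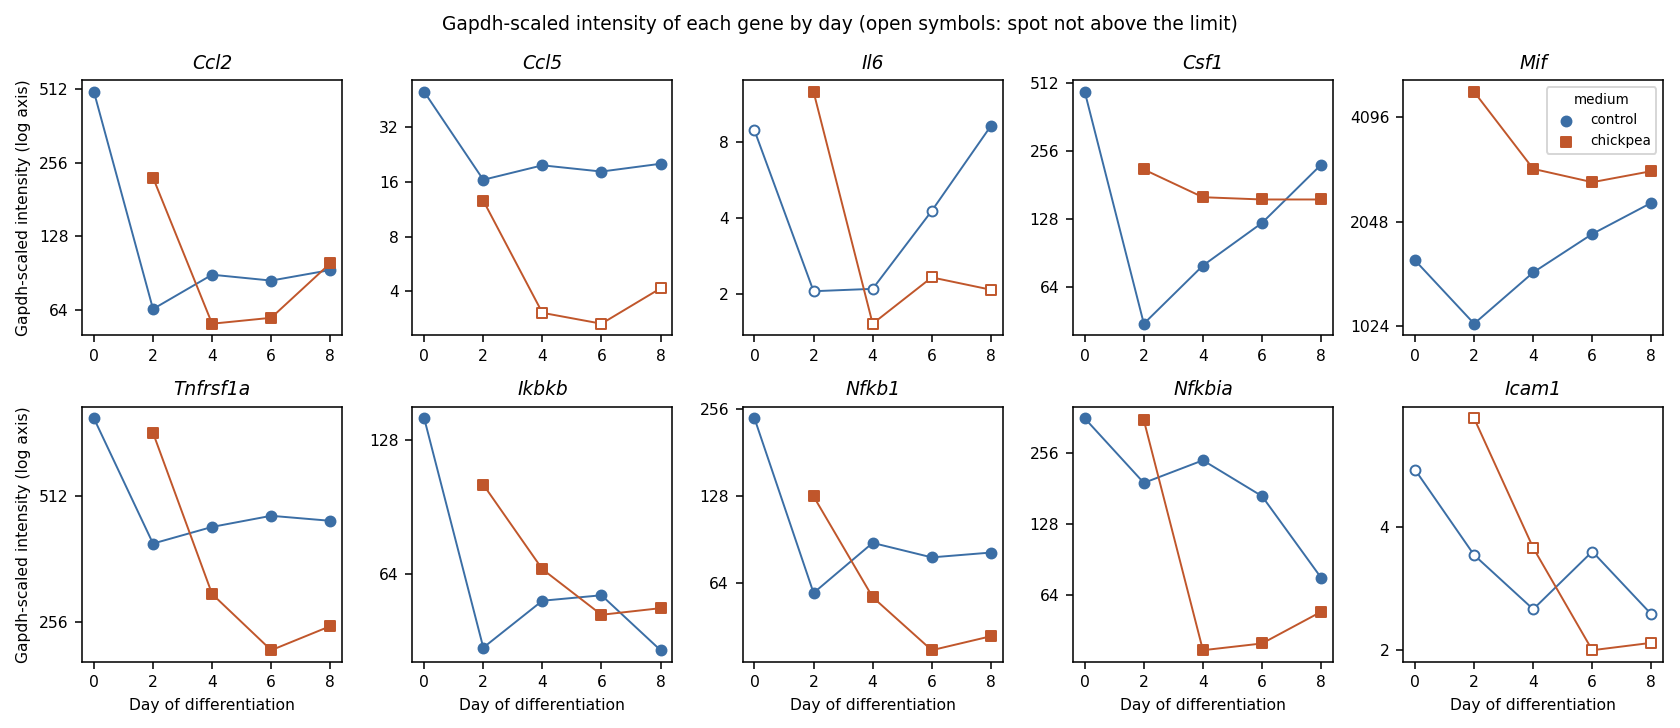
Gapdh-scaled intensity (log axis) of each of the 10 genes against day of differentiation, 1 array per point, with circles for control and squares for chickpea medium. Open symbols are spots not above the limit of 10 intensity units. Ccl2 and Nfkb1 are highest on day 0, Mif is higher with chickpea on each of the 4 shared days on this scale, and Icam1 is open throughout.

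Mif encodes macrophage migration inhibitory factor, a cytokine also made by many cells that are not immune cells. It was the member that passed the comparison of the media. Its Gapdh-scaled intensity was 1585 on day 0, then 1042, 1463, 1888 and 2321 on days 2, 4, 6 and 8 in control medium. In chickpea medium it was 4843, 2907, 2661 and 2863 on the same days. The chickpea arrays were all above the control arrays, those of other days included. On the Gapdh scale the chickpea arrays were higher by 4.65-fold on day 2, 1.99-fold on day 4, 1.41-fold on day 6 and 1.23-fold on day 8.

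Ranked from the brightest of 330 genes, Mif stood at 20 on day 0, at 18, 21, 19 and 16 in control medium, and at 8 on all 4 chickpea arrays. The quantile normalized log2 level was accordingly 10.03 on day 0, between 9.90 and 10.55 in control medium, and 11.97 on each chickpea array. The equal chickpea values come from the equal rank, so they do not measure the spread between the chickpea cultures. The same-day differences were 1.71, 2.07, 1.79 and 1.42 on this scale, with a mean of log2 1.75 ± 0.18 (SE, 4 days; limma adjusted p = 0.0102). Mif rose with chickpea under quantile, median (1.05, adjusted p = 0.0372) and 75th percentile scaling (1.23, adjusted p = 0.0277). It did not pass with limma on the deposited values (1.0, adjusted p = 0.283), with control gene scaling (0.64, adjusted p = 0.106) or without scaling (0.75, adjusted p = 0.372). Unscaled intensity was lower with chickpea on day 8, at 6435 against 8249 units, when the median intensity of the array was 64 against 168 units. Leaving out day 4 gave 1.64 (adjusted p = 0.0763) and leaving out day 6 gave 1.74 (adjusted p = 0.0683), neither past the threshold.

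Among all 239 tested genes, 36 passed the comparison of the media (15.1%), of which 21 were higher with chickpea (8.79%) and 15 lower (6.28%). The members gave 1 of 9, a share near that background. The median chickpea difference was 0.05 over the 9 members and 0.21 over all tested genes, and 6 of the 9 were above 0 against 150 of the 239. RNA was taken from whole cultures, so a different number of cells making a gene and a different amount of RNA per cell cannot be told apart.

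**Figure D2:**
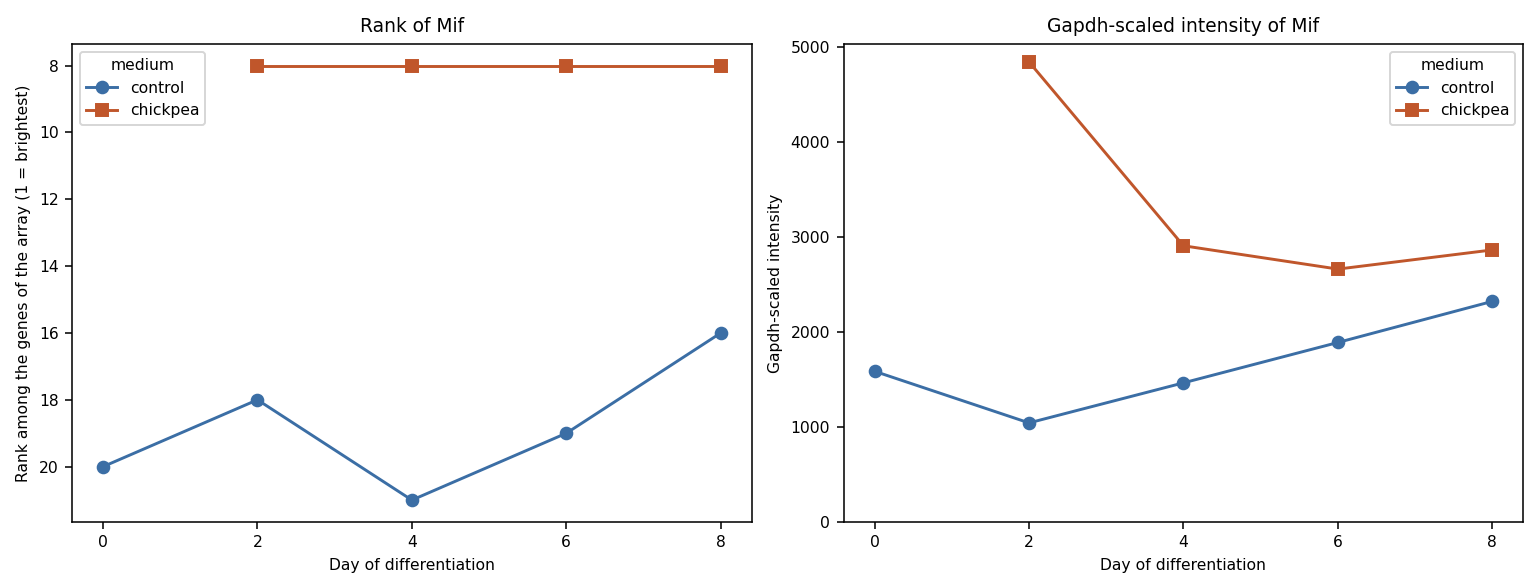
Rank of Mif among the 330 genes of each array (left, 1 is the brightest, axis inverted) and its Gapdh-scaled intensity (right) against day, 1 array per point, with circles for control and squares for chickpea medium. Its rank is 8 on the 4 chickpea arrays and 16 to 21 on the control arrays, while its Gapdh-scaled intensity is 4843 against 1042 on day 2 and 2863 against 2321 on day 8.

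Csf1 encodes macrophage colony-stimulating factor. Gapdh-scaled Csf1 was 467 on day 0, then 43.8, 79.3, 123 and 222 in control medium and 211, 159, 156 and 156 in chickpea medium. In control medium the lowest array was thus day 2 and each later day was higher, while the chickpea arrays stayed within a narrower range. The groups overlapped, since the control array of day 8 exceeded all 4 chickpea arrays on this scale. After quantile normalization the levels were 8.07 on day 0, then 5.86, 6.04, 6.79 and 7.60 in control medium and 6.85, 7.64, 8.03 and 7.81 in chickpea medium. The same-day differences were 0.99, 1.60, 1.24 and 0.20. Chickpea was higher under all 6 scalings on days 2, 4 and 6 and lower on day 8 under 4 of the 6. The mean difference was log2 1.01 ± 0.27 (SE, 4 days, limma adjusted p = 0.0620) and did not pass. It passed under 1 of 13 alternatives, which left out day 8, the day with the smallest difference (1.28, limma adjusted p = 0.0322).

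Over days 2 to 8 Csf1 had the highest slope of the members, 0.23 ± 0.05 log2 units per day (SE; limma adjusted p = 0.0678). No gene passed this test of a straight line shared by both media (0 of 239, 0%), although 61 genes and 2 of the 9 members, Csf1 and Nfkbia, had an unadjusted p under 0.05. Under median and 75th percentile scaling the Csf1 slope was 0.25 and 0.26 and passed (limma adjusted p = 0.0461 and 0.0385).

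Ccl2 encodes the chemokine that attracts monocytes through the receptor Ccr2. Its Gapdh-scaled intensity was 500.3 on day 0, then 64.3, 88.9, 84.1 and 92.9 in control medium and 223, 56.0, 59.2 and 99.0 in chickpea medium. The day 0 array was the highest of the 9, and the later arrays of the media overlapped, with chickpea day 2 the highest of them. Quantile normalized levels were 8.23 on day 0, 6.15 to 6.50 in control medium and 6.17 to 7.15 in chickpea medium. In control medium the differences from day 0 were -1.84, -2.04, -2.08 and -1.73 log2 units on days 2 to 8. In chickpea medium they were -1.29, -2.06, -1.68 and -1.08. All 8 later arrays were lower than day 0 under each of the 6 scalings, with differences between -3.16 and -0.40. The fitted day 8 difference was -1.60 ± 0.33 (SE; limma adjusted p = 0.0884) and did not pass.

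The mean chickpea difference of Ccl2 was 0.39 ± 0.18 (SE, 4 days; limma adjusted p = 0.173) and its sign depended on the scaling. It was -0.13 with control gene scaling and -0.02 without scaling. On day 2 alone Ccl2 was higher with chickpea under all 6 scalings, by 0.55 to 1.79 log2 units, a single pair of arrays with no test. The receptor gene Ccr2 was on the array and was above the limit on 0 of 9 arrays.

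Ccl5, a chemokine that attracts T cells and monocytes, was weak throughout. Its intensity was 43 units on day 0, then 22, 45, 45 and 72 in control medium, above the limit on all 5 arrays. In chickpea medium it was 14 units on day 2 and 4, 6 and 8 units on days 4, 6 and 8, above the limit on 1 of 4 arrays. The chickpea arrays were all below the control arrays. On the Gapdh scale control was 1.30-fold higher on day 2, at 16.4 against 12.6. With the chickpea side bounded by the limit, control was at least 3.23-fold higher on day 4, at least 4.57-fold on day 6 and at least 4.03-fold on day 8. Under 5 of the 6 scalings Ccl5 was lower with chickpea on all 4 days. Quantile normalization put the control array of day 6 at the floor too, so no difference was measured that day. Its mean difference of -0.33 ± 0.21 did not pass (SE, 4 days; limma adjusted p = 0.275). Ccl5 passed as lower with median scaling (-0.81, adjusted p = 0.0443) and control gene scaling (-1.18, adjusted p = 0.0381).

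Against day 0, Ccl5 had quantile normalized differences of -0.49, -1.39, -1.60 or lower and -1.39 in control medium. The fitted day 8 difference was -1.33 ± 0.38 (SE; limma adjusted p = 0.128), not past the test. Without scaling the control arrays of days 4, 6 and 8 were above day 0, so this direction held under 5 of the 6 scalings in control medium.

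Il6, a cytokine that also drives the acute phase response, was at the edge of detection. Its spot gave 6 units on day 0, 1, 3, 9 and 32 units in control medium and 14, 1, 5 and 3 units in chickpea medium. It was above the limit on control day 8 and chickpea day 2. On day 8 the Gapdh-scaled value was 9.24 in control medium, at least 1.85-fold higher with the chickpea side bounded by the limit. On day 2 the direction was the other way. Chickpea was then at 12.6 and control was not above the Gapdh-scaled value of its limit, 8.21. After quantile normalization 8 of the 9 arrays lay at the floor, so the fitted chickpea difference of 0.05 (limma adjusted p = 0.821) carries almost no information. Icam1, the endothelial and epithelial adhesion molecule that leukocytes bind, gave 3 to 7 units and was not above the limit on any of the 9 arrays. No difference was measured for it.

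Tnfrsf1a, tumour necrosis factor receptor 1, feeds the pathway from the cell surface. Its Gapdh-scaled intensity was 787 on day 0, then 394, 432, 459 and 447 in control medium and 727, 298, 218 and 249.5 in chickpea medium. On this scale chickpea was above control on day 2 and below it on days 4, 6 and 8. By rank the media were close, with same-day differences of -0.29, 0.20, 0.07 and 0.03 and a mean of 0.00 ± 0.17 (SE, 4 days; limma adjusted p = 0.995). The mean was below 0 under each of the other 5 scalings, from -0.75 with control gene scaling to -0.16 with 75th percentile scaling, and none of them passed. The fitted day 8 difference from day 0 was -0.52 (limma adjusted p = 0.356). It was 0.40 without scaling. Tnf, the gene of the ligand, was above the limit on 0 of 9 arrays.

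Ikbkb encodes IKK-beta, the kinase that marks the inhibitor for degradation. On the Gapdh scale it stood at 143 on day 0, then 43.8, 55.8, 57.4 and 43.2 in control medium and 102, 65.6, 51.9 and 53.7 in chickpea medium. The quantile normalized levels were 6.36 on day 0, then 5.86, 5.50, 5.47 and 5.02 in control medium and 5.98, 6.52, 6.35 and 6.30 in chickpea medium. By rank all 4 chickpea arrays exceeded all 4 control arrays of days 2 to 8. Mif and Ikbkb were the 2 members with this pattern, which 18.4% of the tested genes had. The same-day differences of Ikbkb were 0.12, 1.02, 0.87 and 1.28. The mean was 0.82 ± 0.24 (SE, 4 days, limma adjusted p = 0.0706), which did not pass. It passed under 1 of 13 alternatives, which left out day 2, the day with the smallest difference (1.06, limma adjusted p = 0.0208).

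Direction was less stable for Ikbkb than the mean implies. Chickpea was higher on all 4 days under 3 of the 6 scalings, and the mean shrank to 0.10 with control gene scaling. From day 2 to day 8 the quantile normalized level moved by -0.84 in control medium and by 0.32 in chickpea medium, and days 4, 6 and 8 lay on opposite sides of day 2 in the media, also with 75th percentile scaling but not with the other 4. By quantile normalized level Ikbkb was the 1 member with this pattern, 1 of 9 against 23% of all tested genes. Other members had it under other scalings. They were Ccl2, Csf1, Mif, Nfkb1 and Tnfrsf1a on the deposited values. Nfkb1 and Tnfrsf1a had it with control gene scaling, and Ccl2, Ccl5, Nfkb1 and Tnfrsf1a without scaling. For Ikbkb the change of the chickpea difference with day was 0.17 log2 units per day (limma adjusted p = 0.173). It was -0.15 on the deposited values and -0.20 without scaling. In that test 8 of 239 genes passed (3.35%, with 2.51% upward) and 0 of 9 members, none with an unadjusted p under 0.05 (75 of all genes had one).

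Nfkb1 encodes the precursor of an NF-kB subunit. Its Gapdh-scaled intensity was 238 on day 0, then 59.1, 88.1, 78.5 and 81.6 in control medium and 128, 57.1, 37.4 and 41.8 in chickpea medium. The day 0 array was the highest. By rank the differences from day 0 lay between -1.09 and -0.84 log2 units in control medium and between -1.12 and -0.96 in chickpea medium. The fitted day 8 difference was -0.93 ± 0.27 (SE; limma adjusted p = 0.128), not past the test. All 4 chickpea arrays were below day 0 under the 6 scalings, and all 4 control arrays under 5 of them; without scaling control day 8 was 0.10 above it. The mean chickpea difference of Nfkb1 was -0.10 ± 0.15 (SE, 4 days; limma adjusted p = 0.628). It ranged from -0.75 to -0.16 under the other scalings and did not pass under any of them.

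Nfkbia encodes I-kB-alpha, the inhibitor that NF-kB itself induces. Scaled to Gapdh, it was 358 on day 0, then 191, 238, 168 and 75.7 in control medium and 351, 37.3, 39.8 and 54.3 in chickpea medium. The low values thus began on day 4 with chickpea and on day 8 in control medium. By rank the levels were 7.88 on day 0, then 8.03, 7.64, 7.14 and 6.17 in control medium and 7.76, 5.65, 6.15 and 6.33 in chickpea medium. The same-day difference was -1.99 on day 4 and -0.99 on day 6, against -0.26 on day 2 and 0.17 on day 8. Under the 6 scalings the day 4 difference lay between -2.94 and -1.97 and the day 6 difference between -2.10 and -0.99. The signs of days 2 and 8 varied with the scaling.

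The differences of Nfkbia varied so much between days that the mean of -0.77 ± 0.39 did not pass (SE, 4 days; limma adjusted p = 0.198), nor did it under the other scalings (lowest adjusted p = 0.113). The slope over days 2 to 8 was -0.25 ± 0.09 log2 units per day (SE; limma adjusted p = 0.116). Against day 0 the control level was at 0.15, -0.24, -0.74 and -1.71 and the chickpea level at -0.11, -2.22, -1.72 and -1.54 on days 2 to 8. Both sets share the single day 0 array. The fitted day 8 difference was -1.24 (limma adjusted p = 0.356).

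**Figure D3:**
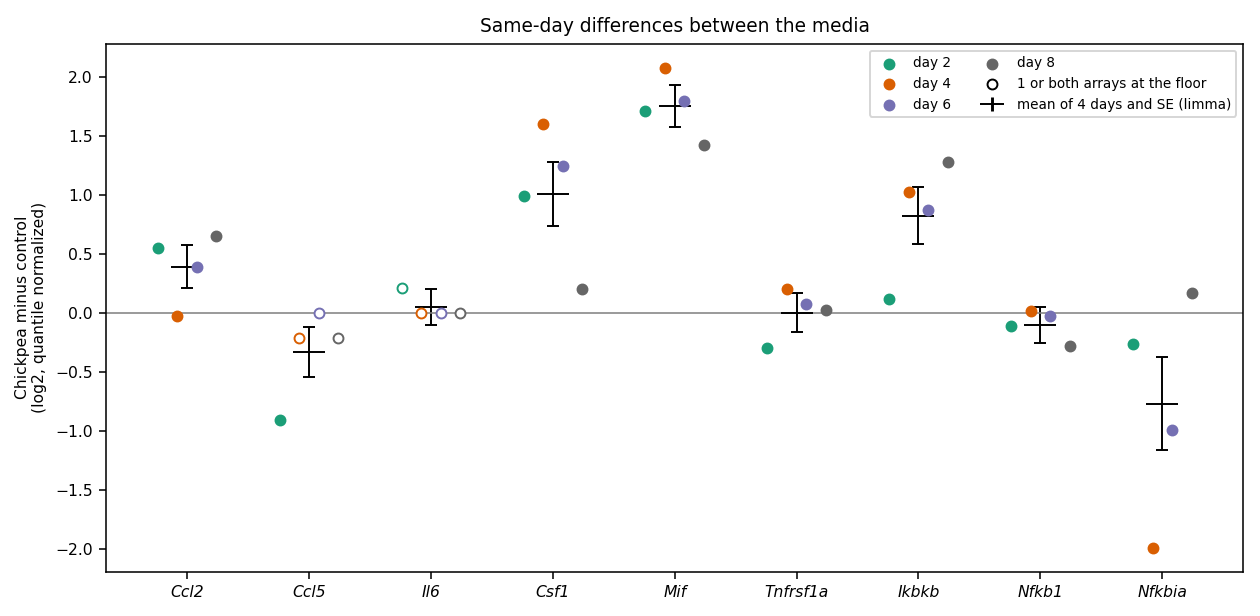
Chickpea minus control difference on each day (points, log2 of quantile normalized intensity) with the limma mean over the 4 days and its SE (bars) for the 9 tested members. Open points have at least 1 array at the floor. The 4 days of Mif lie between 1.42 and 2.07, while those of Nfkbia span from -1.99 to 0.17; signs under other scalings differ for Ccl2, Csf1, Ikbkb, Nfkb1, Nfkbia, Tnfrsf1a and, on day 8, Mif.

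Counted over members, Csf1, Mif and Ikbkb were higher with chickpea on all 4 days after quantile normalization, 3 of 9 against 27.6% of all tested genes. No member was lower on all 4 days, against 12.6%. On single days, differences of at least 2-fold upward numbered 1 of 9 members on day 2 (20.1% of all tested genes), 3 on day 4 (22.6%), 2 on day 6 (19.2%) and 2 on day 8 (14.2%). Downward ones numbered 0, 1, 0 and 0 (18.4%, 16.3%, 13.8% and 13%). These shares have no test.

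**Figure D4:**
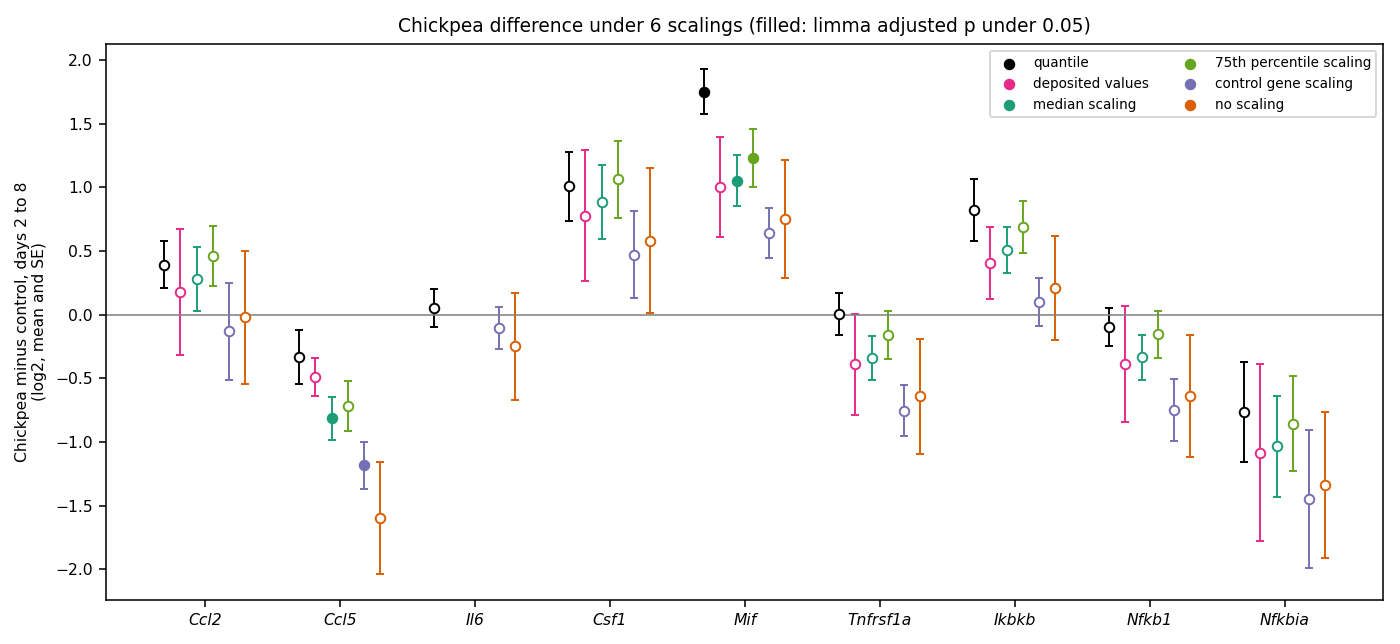
Mean chickpea minus control difference over days 2 to 8 (log2) with its SE for the 9 tested members under 6 scalings of the arrays. Filled points passed limma at an adjusted p of 0.05. Csf1, Mif and Ikbkb are above 0 and Ccl5, Nfkb1 and Nfkbia are below 0 under each scaling that gave a value. Ccl2, Il6 and Tnfrsf1a lie on both sides of 0. Il6 has a value under 3 of the 6.

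Against day 0, Ccl2, Ccl5, Csf1 and Nfkb1 were lower on all 8 later arrays by rank, 4 of 9 members against 15.9% of all tested genes. Without scaling, Ccl5, Csf1 and Nfkb1 were above day 0 on at least 1 later array, and Csf1 was also above it with 75th percentile scaling. In control medium 2, 3, 4 and 4 members were at least 2-fold lower than day 0 on days 2, 4, 6 and 8 (14.6%, 14.6%, 20.5% and 22.2% of all tested genes). In chickpea medium 3, 3, 4 and 4 were (15.5%, 15.1%, 14.2% and 13%). Upward by 2-fold there was 0 on each day in control medium (15.1%, 12.6%, 15.9% and 16.7%), and in chickpea medium 1 on each day, Mif (17.2%, 16.3%, 13.4% and 11.3%). Mif stood 1.94 log2 units above day 0 on each chickpea array and between -0.13 and 0.52 from it in control medium.

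In the fit of day 8 against day 0, 5 of 239 genes passed (2.09%, with 1.26% upward) and 0 of 9 members. The unadjusted p was under 0.05 for 3 members, Ccl2, Ccl5 and Nfkb1, and for 56 genes in all. The median day 8 difference was -0.93 over the members and -0.36 over all tested genes, with 1 of the 9 above 0 (Mif, at 0.35) and 81 of the 239. The day 0 array is fitted exactly, so these errors hold no measured spread of day 0.

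**Figure D5:**
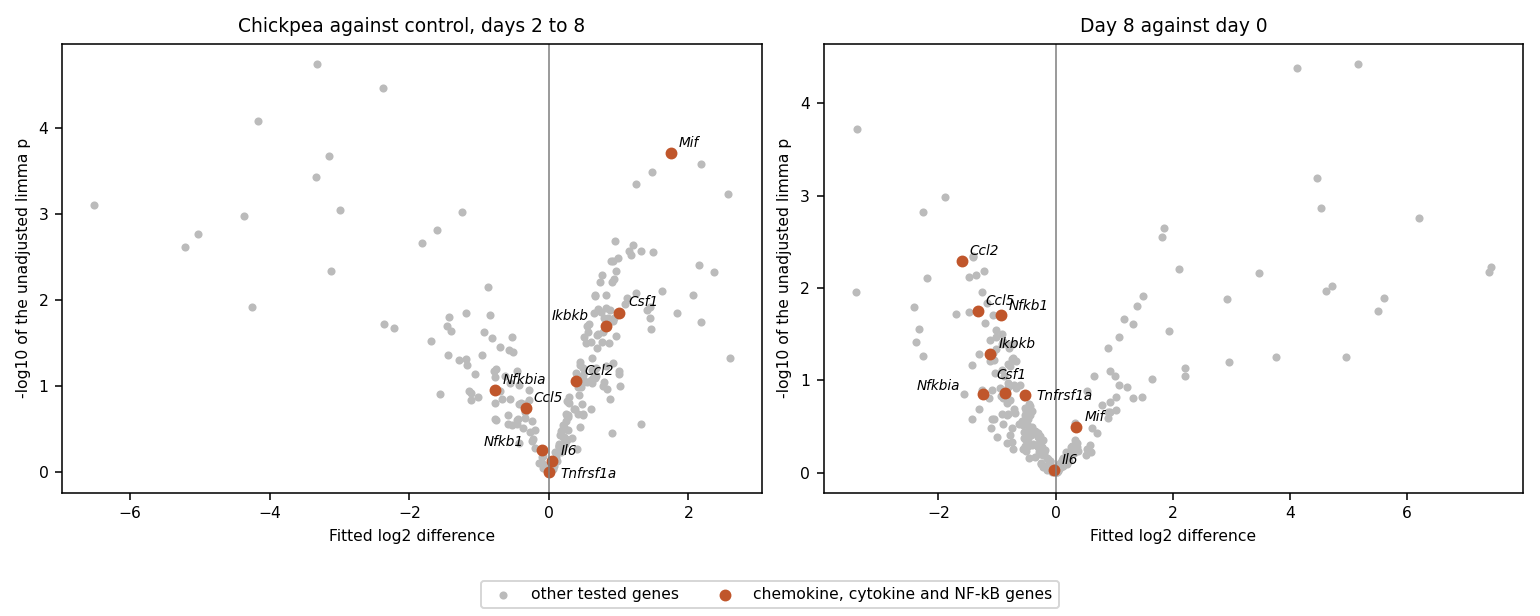
Fitted log2 difference against the negative log10 of the unadjusted limma p for the 239 tested genes, for chickpea against control over days 2 to 8 (left) and day 8 against day 0 (right), by quantile normalized level. Orange points are the 9 tested members and grey points the other genes. Mif stands high on the left, and on the right 8 of the 9 members lie left of 0; without scaling 6 of the 9 lie right of it.

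Other inflammatory genes were counted from fixed lists. Of 30 listed cytokines, chemokines and receptors, 5 were on the array and 2 were tested. Tnf, Il10 and Ccr2 were not above the limit on any array. Tnfrsf1b, the second tumour necrosis factor receptor, had a chickpea difference of 1.01 (limma adjusted p = 0.150) and Tgfb1, a growth factor that restrains adipogenesis, 0.92 (adjusted p = 0.0673). All 4 NF-kB and JNK genes on the array were tested and 0 passed. Their differences were -0.28 for the adaptor Traf2, 0.45 for the adaptor Tradd, 0.49 for the kinase gene Mapk8 and -0.58 for Jun, a subunit of the transcription factor that JNK activates.

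Of the other NF-kB target and acute phase genes, 6 were on the array, 5 were tested and 3 passed, 2 of them downward. Hp, haptoglobin, was above the limit on 4 of 5 control arrays and 0 of 4 chickpea arrays. It was lower by 4.37 log2 units with chickpea than in control medium (limma adjusted p = 0.0182), with all 4 chickpea arrays at the floor. Its day 0 array was at the floor too, and the later control arrays lay between 5.39 and 8.81. C3, the central complement component, was lower by 4.17 (limma adjusted p = 0.0067). Its quantile normalized log2 level was 9.08 on day 0, then 10.79 to 11.85 in control medium and 6.76 to 7.55 in chickpea medium. Hmox1, haem oxygenase, which is also induced by oxidative stress, rose by 2.37 (limma adjusted p = 0.0363). Hp and C3 were lower under all 6 scalings and passed under 5 of them, failing on the deposited values, whereas Hmox1 was higher under all 6 and passed under quantile scaling alone. The median of the 5 was 0.20, against 0.21 over all tested genes. It is the value of Crp alone, which lay at the floor on 8 arrays, so it says little about the list. Of 13 genes listed for glucocorticoid and cAMP inducers, 8 were on the array and tested. Of these 8, 0 passed, and their median chickpea difference was 0.53.

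Markers of cell types moved with the media. All 11 adipocyte markers were on the array and tested. With chickpea 6 were lower than in control medium (0 on the deposited values and 5 to 7 under the other scalings). Of these, Adipoq, Plin1, Cfd and Retn were at the floor on day 0. Lipe was at log2 4.26 on day 0 and 5.16 to 6.18 with chickpea, and Pparg at 6.16 and 6.30 to 6.91. All 11 had a fitted day 8 difference from day 0 above 0, and 2 passed by quantile normalized level. Cd36 was the 1 marker with a chickpea difference above 0, at 0.90 (limma adjusted p = 0.446), and was above 0 under 5 of the 6 scalings. The summed Gapdh-scaled intensity of the 11 was 2234 on day 0, between 2819 and 28246 in control medium and between 1956 and 5267 in chickpea medium. On day 2 the sum was higher with chickpea, at 5267 against 2819, although fewer of the 11 were above the limit. These were 6 with chickpea, without Adipoq, Cfd, Plin1, Retn and Slc2a4, and 10 in control medium, without Slc2a4. Retn and Slc2a4 were not above the limit on any chickpea array. In control medium Retn was not above it on day 0, and Slc2a4 not on days 0 and 2. Among 4 tested preadipocyte markers Dlk1 was lower with chickpea than in control medium, by 1.24 (limma adjusted p = 0.0173). It did not pass limma on the deposited values (adjusted p = 0.142) or without scaling (adjusted p = 0.0549). The others did not pass, at -0.24 for Sfrp2, 0.09 for Gata2 and 0.43 for Gata3. Sfrp2 and Gata2 passed downward on day 8 against day 0 under quantile scaling alone. Dlk1 was the brightest of these markers, at log2 13.28 on day 0 against 7.50 for Sfrp2, so it weighs most in their sum. The preadipocyte sum was 16953 on day 0, 3755 to 5077 in control and 965 to 2677 in chickpea medium. The part of these shifts in the member values was not tested. No macrophage marker of 11 listed was on the array, and of the 2 endothelial markers on it Tek was above the limit on 0 of 9 arrays and Kdr on 7 (4 control, 3 chickpea). After quantile normalization Kdr lay at the floor on 7 of the 9 arrays, every control array among them. Its chickpea difference of 0.21 (limma adjusted p = 0.376) thus carries little information. The sum of Tek and Kdr was 7.88 to 22.0 in Gapdh-scaled intensity on the control arrays and 7.12 to 20.8 on the chickpea arrays.

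The genes most like each member were taken by Pearson correlation of the quantile normalized level over the 9 arrays among 178 candidates. These r describe arrays that share a course of days and have no test. Ikbkb was closest to Ppp1ca, a phosphatase subunit (r = 0.97, and 0.96 without day 0), and Stx4a, a syntaxin (0.94 and 0.94). Mif was closest to Dvl1, a Wnt pathway scaffold (0.93 and 0.96), and Slc2a1, a glucose transporter (0.92 and 0.91). Csf1 was closest to Rhoq, a small GTPase (0.91 and 0.93), and Vegfb, an angiogenic growth factor (0.90 and 0.92). Nfkbia was closest to Vdr, the vitamin D receptor (0.89 and 0.94), and Traf2 (0.87 and 0.87).

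Ccl2 was closest to Acsl5, an acyl-CoA synthetase (0.93), and Thbs2, a thrombospondin (0.89), falling to 0.75 and 0.77 without day 0. Nfkb1 was closest to Thbs1, another thrombospondin (0.88), and Vegfc, a lymphatic growth factor (0.78). Without day 0 these values were 0.18 and 0.44, so its likeness rests on the day 0 array. Tnfrsf1a was closest to Prkag2, an AMP kinase subunit (0.84 and 0.80), and Socs3, a cytokine signal suppressor (0.82 and 0.79).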

How the data were processed

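Dye-labelled cDNA was hybridized to Kurabo GeneSQUARE arrays in 1 colour, per the labels' protocols. Spots were read with GenePix Pro 6.1.0.4 as median intensity minus local background, per the file headers. The deposited values are linear intensity, and the authors' scaling was worked out from the values, since no source used here states it. Each is the background-subtracted intensity plus 2 or 3 units, times a factor that brings the Gapdh spots of a block to a mean of 10000. All 354 entries of each sample matched a spot within a relative 1e-06, and gene names and intensity units come from that match. Within an array an entry could match more than 1 spot. Csf1 and Ikbkb, for example, both read 62 units and 43.8 on the Gapdh scale on control day 2.

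Values were converted to log2, spots of a probe averaged, the brightest probe kept per gene, and 330 genes quantile normalized and floored at log2 3.39. Genes above 10 intensity units on at least 2 arrays numbered 247; 8 were constant at the floor, leaving 239 tested. Of 378 empty and negative control spots, 3 exceeded that limit. Where only 1 of a pair of arrays is at the floor, their difference is a bound.

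Tests used limma 3.58.1 (lmFit and eBayes, R 4.3.3), two-sided, with Benjamini-Hochberg adjustment over all tested genes and a threshold of 0.05. The chickpea fit used all 8 arrays later than day 0 and a term for each day, since the labels pair arrays by day (3 residual degrees of freedom), and a second fit added medium by day (2). Day 8 against day 0 used all 9 arrays with additive day and medium (3), and the slope over days 2 to 8 used a linear day and medium (5). With no replicate cultures, errors rest on variation between days, and precision is limited by how few arrays there are. The fits were also run on simulated data with planted changes and less noise than these arrays (median residual SD 0.38 in the chickpea fit). That setting was easier, so it does not measure how the fits perform here. Alternatives covered 5 other scalings, the filter, the limit, the variance prior and leaving out each day.

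All 10 members are named. Neighbours are the 2 genes with the highest r for each member detected on all arrays, and list genes are those that passed or the 4 with the largest chickpea difference where fewer passed. A gene that this rule names is not reported here. The members, lists, limit and promoter motif were chosen with earlier results of these data known.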

Additional observations from a re-analysis of the deposited data

Results flagged for a closer look

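Ikbkb, the IKK-beta gene, took opposite courses in the 2 media after quantile normalization. Its quantile normalized log2 level on days 4, 6 and 8 lay below day 2 in control medium, by 0.36, 0.39 and 0.84, so that day 8 minus day 2 was -0.84. In chickpea medium the same days lay above day 2, by 0.54, 0.37 and 0.32, so that day 8 minus day 2 was 0.32. Days 4, 6 and 8 on opposite sides of day 2 in the 2 media occurred in 23.0% of tested genes and in 1 of the 9 tested members. A straight-line change of the chickpea difference with day was tested and did not pass (limma adjusted p = 0.173). The opposite courses also appeared with 75th percentile scaling and not with the other 4 scalings. On the deposited values Ikbkb in chickpea medium was at -0.63, -0.97 and -0.92 from day 2 on days 4, 6 and 8. In control medium it was at 0.35, 0.39 and -0.02. The direction of each course thus depended on the scaling.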

How the results depend on the processing

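With 36 genes passing the comparison of the media (1 member), the deposited values gave 0 (0 members; 44 genes at an unadjusted p under 0.05), median scaling 27 (2 members), 75th percentile scaling 33, control gene scaling 26 and no scaling 14 (0 members), and leaving out each day in turn 0 to 71 (0 to 2 members). The split of higher against lower calls was 21 to 15, and 6 to 21, 13 to 20, 1 to 25 and 0 to 14 with median, 75th percentile, control gene and no scaling. The median of all genes was 0.21, and -0.05 (deposited), -0.05 (median), 0.07 (75th percentile), -0.39 (control gene) and -0.32 (none). With 8 genes passing the change with day (0 members), the deposited values gave 0, median scaling 4, control gene scaling 0, the filter on all arrays 21, and leaving out days 0 to 33 (0 to 1 member, Nfkbia without day 2, 0.54, limma adjusted p = 0.0175). With 5 passing day 8 against day 0 (0 members), the deposited values, control gene scaling and no scaling gave 0, median scaling 3, the filter on all arrays 2, a limit of 20 units 11, a trended prior 9, and leaving out days 0 to 30 (0 to 1 member, Ccl5 without day 2, -1.43, adjusted p = 0.0396). With 0 passing the slope over days, median scaling gave 19, 75th percentile scaling 18 (1 member each, Csf1), no scaling 1, and leaving out days 0 to 1. The mean chickpea difference changed sign for Tnfrsf1a (-0.39 deposited, -0.34 median, -0.16 75th percentile, -0.75 control gene, -0.64 without scaling, -0.063 to 0.10 leaving out days), Ccl2 (-0.13 control gene, -0.020 without scaling) and Il6 (-0.10 and -0.25). Its change with day did so for Ikbkb (-0.15 deposited, -0.20 without scaling) and Nfkbia (-0.17 and -0.20, and -0.18 to 0.54 leaving out days). Day 8 against day 0 did so for Il6 (0.26 control gene, 0.77 without scaling) and, without scaling, Ccl5 (0.32), Csf1 (0.10), Ikbkb (0.047) and Tnfrsf1a (0.40). The causes were not tested. The comparison of the media was paired by day; pairing by replicate number did not apply, since each medium and day had 1 array. Low signal limits Ccl5, Il6 and Icam1.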
